A study of Mus musculus with 20 samples.

Results

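The genes of the circadian clock were examined in RNA from the mouse utricle, the organ of the inner ear that senses linear acceleration through otoconia. The set holds 10 of the 25655 genes in the deposited tables: *Clock*, *Npas2*, *Per1*, *Per2*, *Per3*, *Cry1*, *Cry2*, *Nr1d1*, *Nr1d2* and *Dbp*. They were taken by gene name, and no measured value enters the rule. Female C57BL/6J mice were operated on at 8 weeks of age, and the utricles were taken 4 weeks later. The intact animals, whose ovaries were exposed and left in place, received a vehicle pellet (sham + v group). Animals without ovaries (OVX) received a vehicle pellet (OVX + v group), a slow-release pellet with 50 µg of estradiol for 60 days (OVX + E2 group), or a slow-release pellet with 2.4 mg of the selective estrogen receptor modulator raloxifene for 60 days (OVX + RAL group). There were 5 libraries in each of the 4 groups, numbered 1 to 20, and no replicate number is shared between groups. The labels do not say whether a library came from 1 mouse or from several, so the p-values measure the spread between these libraries. The mice lived under 12 h of light from 7 am and 12 h of darkness, and the hour at which the utricles were taken is not given in the sources used here.

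The clock of a mammalian cell is a loop of transcription. CLOCK, or its paralog NPAS2, pairs with BMAL1 (the product of *Arntl*) and switches on the *Per*, *Cry*, *Nr1d* and *Dbp* genes through a DNA motif called the E-box. The PER and CRY proteins then shut off their own activators, and the REV-ERB receptors encoded by *Nr1d1* and *Nr1d2* repress *Arntl*, *Clock* and *Npas2* through another motif, the RORE. As a result, in rhythmic tissues the activators peak at about the opposite time of day from *Nr1d1*, *Nr1d2*, *Dbp* and the *Per* genes. DBP is an output factor that acts on D-box motifs.

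The motifs through which these factors act were looked for in the RefSeq promoter windows, from 250 bases before to 50 bases after each transcript start (table build GRCm38.p6). Of the 10 members 9 were matched by symbol, all but *Per2*, with 12 windows in all, since *Clock* had 3 and *Per1* 2. The letters searched on both strands were CACGTG for the E-box, TTATGTAA and TTACGTAA for the D-box and TAGGTCA for the core of the RORE. CACGTG was found in 2 of the 12 windows, 1 of *Per1* and that of *Cry1*, against 7.15% of all 32851 windows, and TTATGTAA in 1, that of *Per3*, against 0.938%. TTACGTAA (0.119% of all windows) and TAGGTCA (2.61%) were in none of the members' windows. The other 6 members with a window held none of these letters there, which says only that the letters are not in the windows searched, of 300 bases each. The stretches around the matches are shown because letters of these kinds are what the factors of the loop bind, and a match describes the letters only. Of 16 listed clock genes outside the members that had a window, 3 held CACGTG, *Bhlhe41* among them. Its stretch is the only 1 of these shown, because *Bhlhe41*, an E-box repressor of the same system, is the counterpart of *Nr1d1* in the last results. Each is given 5′ to 3′ on the gene's strand with the motif in capitals. Its position in GRCm39 was found by matching the whole window to the chromosome, where it matched 1 time. The window of *Per1* shown here belongs to a transcript start that lies 3732 bases inside the annotated gene, so its E-box is not upstream of the whole gene.
*Per1*, chr11:68989582-68989641, plus strand, E-box starting 166 bases before this internal start: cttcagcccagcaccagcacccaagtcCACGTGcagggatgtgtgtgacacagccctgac
*Cry1*, chr10:85020946-85021005, minus strand, E-box starting 60 bases before the start: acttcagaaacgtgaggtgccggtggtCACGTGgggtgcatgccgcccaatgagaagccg
*Bhlhe41*, chr6:145811267-145811326, minus strand, E-box starting 153 bases before the start: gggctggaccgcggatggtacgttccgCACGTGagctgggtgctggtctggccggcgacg
*Per3*, chr4:151129246-151129354, minus strand, D-boxes starting 205 and 158 bases before the start: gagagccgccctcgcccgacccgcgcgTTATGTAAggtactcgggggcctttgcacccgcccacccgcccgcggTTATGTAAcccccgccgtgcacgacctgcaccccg

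The libraries held 1123053 to 2081747 counts, and 3 counts made 1.44 to 2.67 CPM (counts of a gene in every 1000000 of its library). Between 7427 and 9680 genes were counted in OVX + E2 libraries and between 8651 and 10694 in the others. Fewer than 9000 genes were counted in 6 libraries (replicates 4 and 5 of the sham + v group and 11 to 14 of the OVX + E2 group). Without them 3 sham + v libraries and 1 OVX + E2 library are left, and the number of members with an adjusted p under 0.05 by edgeR was 0 in each comparison between groups given below, which says little for OVX + E2, then 1 library. The markers of the tissue were present in every library: the summed level of 5 hair cell markers was 269 to 882 CPM, and that of 5 markers of supporting cells and otoconial matrix was 1835 to 4687 CPM. *Oc90*, which encodes the main protein of otoconia, was at 0 in 12 libraries. Markers of Schwann cells (1553 to 4018 CPM), melanocytes (328 to 1546 CPM), red blood cells (363 to 3837 CPM), skeletal muscle (0 to 279 CPM), macrophages (2.67 to 223 CPM), bone (1.13 to 295 CPM) and endothelium (57.0 to 427 CPM) were counted as well. Of the 2 mucosa markers *Muc5b* was at 0 throughout and *Bpifa1* ranged from 0 to 1738 CPM and was past the threshold of 0.05 in the test of any difference among the groups (adjusted p = 1.03e-08 by edgeR), and its part in the results was not tested. Fewer cells of a type and less RNA per cell cannot be told apart in such libraries. The kit reads 1 end of each transcript, so the CPM was not divided by length.

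At the level of the whole set, *Nr1d2* and *Dbp* had the most reads among the 10 members. Over the 20 libraries the mean levels were 195 CPM for *Nr1d2*, 113 for *Dbp*, 79.0 for *Per2*, 69.5 for *Nr1d1*, 52.2 for *Per3*, 50.4 for *Per1*, 41.3 for *Cry2*, 32.1 for *Clock*, 17.9 for *Cry1* and 1.28 for *Npas2*. *Nr1d2* was the highest of the 10 members in 12 libraries, *Dbp* in 5, *Cry2* in 2 and *Nr1d1* in 1. The spread between libraries was as large as the steps in this order. *Nr1d2* exceeded *Dbp* in 14 of 20 libraries, *Per2* exceeded *Nr1d1* in 10, *Per3* exceeded *Per1* in 10, and *Cry2* exceeded *Clock* in 9, so these neighbours are not separated beyond their spread. Of the 200 values (10 genes in 20 libraries) 34 were 0 counts (17%), of which 18 were of *Npas2* and 9 of *Cry1*. Another 13 values (6.5%) lay between 1 and 10 counts, and 153 (76.5%) were above 10. Over the 12908 genes with a total in the range of the members, 33.7% of the values were 0, 9.34% lay between 1 and 10 and 57.0% were above 10. A gene could thus have over 100 counts in 1 library and none in another of the same group, as *Cry2* did.

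**Figure D1:**
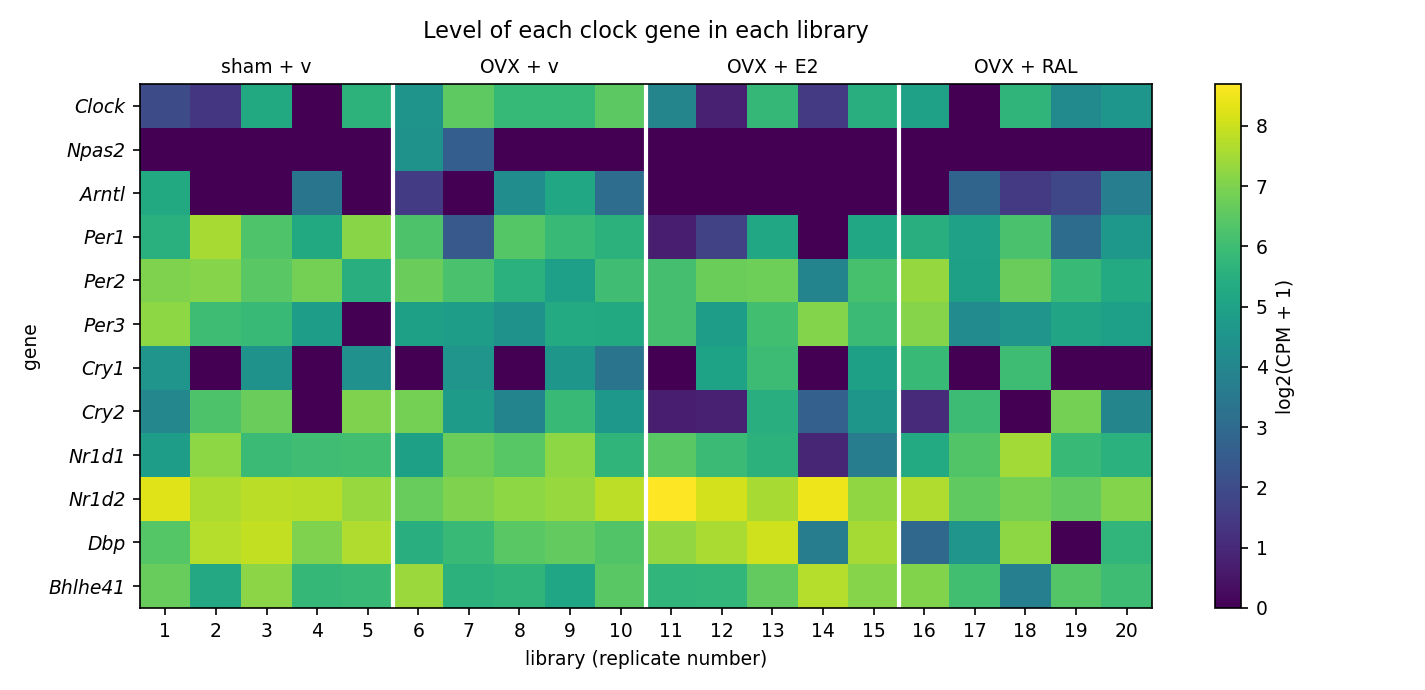
Level of the 10 clock genes and of *Arntl* and *Bhlhe41* in each of the 20 libraries, as log2(CPM + 1) by colour, with libraries in columns and white lines between groups. *Npas2* is dark in all but 2 libraries, *Arntl* is dark in all 5 OVX + E2 libraries, and *Nr1d2* is bright throughout.

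The study compared each of the other groups with the OVX + v group, to ask what ovariectomy changed and whether estradiol or raloxifene altered it. None of the 10 clock genes differed between groups past the threshold in any of these comparisons. The test was the quasi-likelihood test of edgeR on the counts, with p-values adjusted by Benjamini-Hochberg over all genes tested and a threshold of 0.05. All 10 members had the 10 counts over the fitted libraries needed to be tested. Against the OVX + v group, 0 of 10 members were past the threshold in sham + v, where 0.0145% of 13825 genes were. The number was 0 of 10 in OVX + E2, against 0.0584% of 13695 genes, and 0 of 10 in OVX + RAL, against 0.0286% of 14002 genes. In the test of any difference among the 4 groups it was 0 of 10, against 0.141% of 14870 genes. DESeq2 gave a p for 10, 10, 9 and 10 members in these tests, in the same order, with no adjusted p for 1 member in each of the first 2. It called 0 in each, where it called 0.098%, 0.32%, 0.0318% and 0.0151% of the genes to which it gave a p. At an unadjusted p under 0.05 it had 1, 1, 0 and 2 members, against 5.59%, 6.05%, 5.63% and 3.17% of those genes.

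At an unadjusted p under 0.05 by edgeR, 1 or 2 members were counted in each test. In sham + v 2 of 10 reached it, *Dbp* with the higher and *Npas2* with the lower level, against 12.5% of all genes. In OVX + E2 1 of 10 did, *Npas2*, against 13.9%, and in OVX + RAL 1 of 10, again *Npas2*, against 12.1%. In the test of any difference 2 of 10 did, *Dbp* and *Npas2*, against 16.3%, and both had an adjusted p of 0.134 by edgeR. An exact two-sided permutation test of log2(CPM + 1) over the 252 groupings of 5 and 5 libraries was added after the data were seen. It gave p under 0.05 for 2 members in sham + v (*Dbp* and *Clock*, 3.85% of all genes), for 1 in OVX + E2 (*Per3*, 5.18%) and for 1 in OVX + RAL (*Clock*, 4.14%). The smallest p that this test can give is 0.00794, which does not pass adjustment over all genes.

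The direction of the members was mixed. In sham + v 7 members had a higher fitted level than in OVX + v and 3 a lower one, with a median log2 fold change of 0.47, against -0.02 over all genes. In OVX + E2 5 were higher and 5 lower, with a median of -0.40 against -0.06. In OVX + RAL 3 were higher and 7 lower, with a median of -0.27 against -0.03. The 3 comparisons share the 5 OVX + v libraries, so their values are not independent of each other. The summed CPM of the 10 members was 818 ± 158 in sham + v (SD, n = 5), 584 ± 58.9 in OVX + v, 701 ± 143 in OVX + E2 and 502 ± 196 in OVX + RAL.

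**Figure D2:**
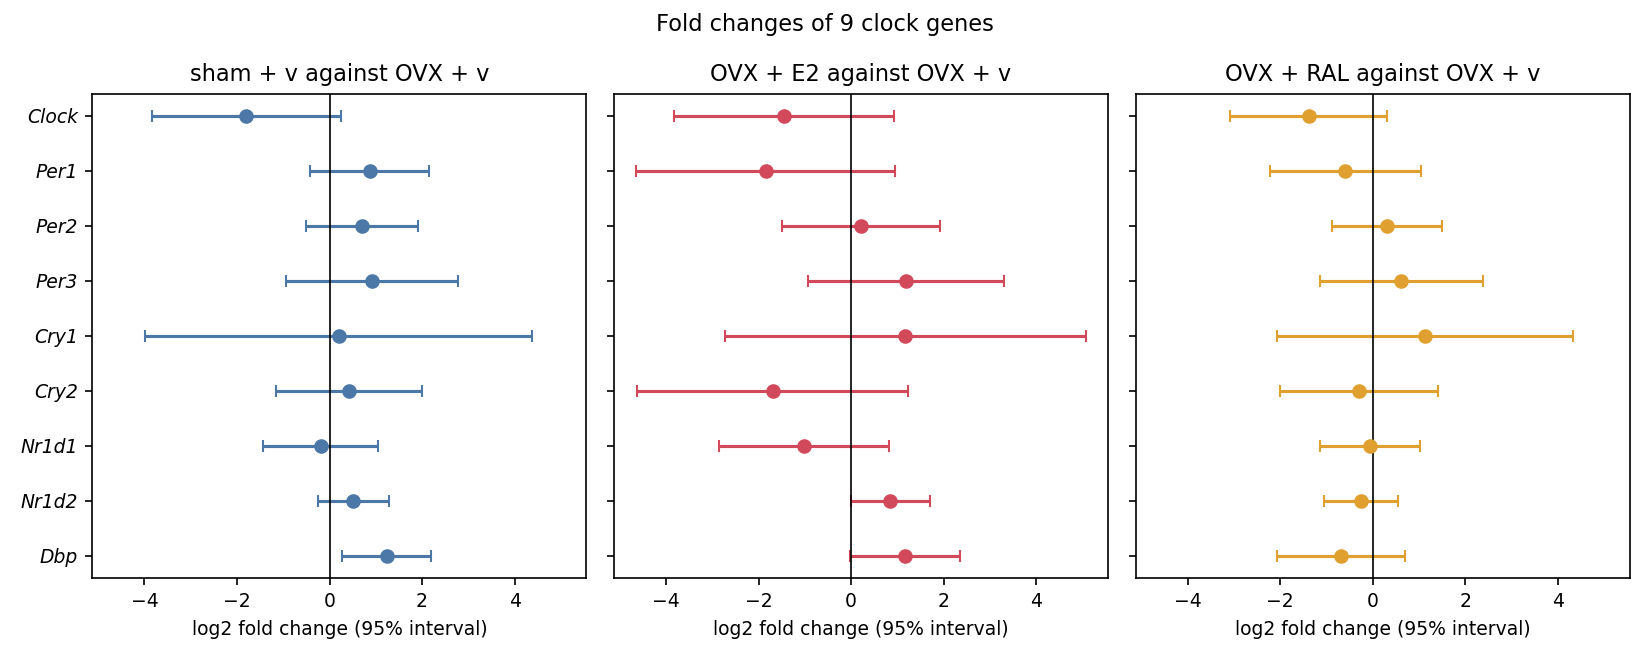
Log2 fold change of 9 clock genes in each group against the OVX + v group by edgeR, with 95% intervals (bars) from the fits of 5 and 5 libraries. *Npas2* is left out because 3 groups had no count. The intervals of *Cry1* span the widest range, and that of *Dbp* in sham + v, 0.27 to 2.20, lies above 0 before adjustment.

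*Dbp* (chromosome 7, 45354512 to 45359627, plus strand, GRCm39, as for all positions of genes given here) was the member with the lowest p in the test of any difference among the groups. Its levels were 82.8, 209, 235, 128 and 200.3 CPM in sham + v and 43.0, 58.3, 87.3, 95.6 and 79.4 CPM in OVX + v. They were 157, 193, 269, 11.6 and 183 CPM in OVX + E2 and 6.69, 22.1, 146, 0 and 51.4 CPM in OVX + RAL. In sham + v and OVX + E2, 4 of 5 libraries each lay above every OVX + v library, and in OVX + RAL 3 of 5 lay below every OVX + v library. The ranges overlapped in each comparison, because replicate 1 of the sham + v group lay within the OVX + v range, replicate 14 of the OVX + E2 group lay below it and replicate 18 of the OVX + RAL group above it. The means were 171 ± 63.3 CPM (SD, n = 5) in sham + v, 72.7 ± 21.6 in OVX + v, 163 ± 94.1 in OVX + E2 and 45.3 ± 59.8 in OVX + RAL.

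The log2 fold change of *Dbp* relative to OVX + v was 1.23 in sham + v (SE 0.49, adjusted p = 0.363 by edgeR, permutation p = 0.0238 by the exact test). It was 1.16 in OVX + E2 (SE 0.61, adjusted p = 0.386 by edgeR, p = 0.476 by the exact permutation test) and -0.68 in OVX + RAL (SE 0.70, adjusted p = 1.000 by edgeR). With single libraries left out, the value in OVX + RAL ran from -1.85 (without replicate 18) to -0.36 (without replicate 19), with adjusted p-values of 0.533 or more by edgeR. The test of any difference among the groups depended on replicate 18: without this OVX + RAL library, *Dbp* passed the threshold with an adjusted p of 0.0393 by edgeR, and no member passed it when any other library was left out. *Dbp* was higher in libraries with fewer genes counted by rank (rho = -0.56, r = -0.28 over 20 libraries). Of the 8 libraries of sham + v and OVX + E2 that exceeded the whole OVX + v range, 5 (replicates 4, 5, 11, 12 and 13) were among the 6 with fewer than 9000 genes, whereas replicate 14, the OVX + E2 library with the least *Dbp*, had the fewest genes of all. Without those 6 libraries the log2 fold change was 1.27 in sham + v and 1.33 in OVX + E2, then of replicate 15 alone. The summed level of the 4 Schwann cell markers, each counted in every library, had its highest median in OVX + E2 (3814 CPM, 2116 to 4018), against 2483 CPM (1646 to 2727) in OVX + v, 1894 CPM (1553 to 3876) in sham + v and 1862 CPM (1735 to 2192) in OVX + RAL. The 3 endothelium markers had their highest median there too (391 CPM, 67.2 to 427), against 294 CPM (57.0 to 311) in sham + v, 186 CPM (131 to 227) in OVX + v and 237 CPM (128 to 369) in OVX + RAL. Of these *Pecam1* and *Cdh5* were at 0 in libraries of every group. The part of both cell types in the levels of *Dbp* and *Nr1d2* was not tested. *Dbp* shares 737 bases with *Sphk2* on the opposite strand. Whether the counting used strand is not stated, and *Sphk2* was at 62.7 CPM on average (r = -0.28 and rho = -0.09 with *Dbp* over 20 libraries).

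*Clock* (chromosome 5, 76357715 to 76452639, minus strand), the activator, had a lower mean in all 3 other groups than in OVX + v. Its levels were 21.8, 92.2, 56.1, 56.0 and 89.9 CPM in OVX + v, with a mean of 63.2 ± 29.0 (SD, n = 5). In sham + v they were 2.92, 1.57, 37.9, 0 and 48.4 CPM (18.2 ± 23.1), and in OVX + E2 14.6, 0.755, 54.5, 1.78 and 43.5 CPM (23.0 ± 24.6). In OVX + RAL they were 30.3, 0, 51.1, 16.8 and 22.6 CPM (24.2 ± 18.7). The groups overlapped: 3 sham + v libraries, 3 OVX + E2 libraries and 2 OVX + RAL libraries lay below every OVX + v library, and none lay above. The 3 OVX + E2 libraries were replicates 11, 12 and 14. The log2 fold changes were -1.80 (SE 1.04, adjusted p = 0.607), -1.45 (SE 1.21, adjusted p = 0.929) and -1.38 (SE 0.86, adjusted p = 0.711) by edgeR, in sham + v, OVX + E2 and OVX + RAL. The exact permutation p-values were 0.0397, 0.0556 and 0.0476 in the same order. With single libraries left out the value in sham + v ran from -2.57 (without replicate 5) to -1.48 (without replicate 4), that in OVX + E2 from -2.05 (without replicate 13) to -1.14 (without replicate 12) and that in OVX + RAL from -1.85 (without replicate 18) to -1.06 (without replicate 17). The 3 values lean on the same 5 OVX + v libraries.

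*Npas2* (chromosome 1, 39232812 to 39402317, plus strand), the paralog of *Clock* used mainly in the forebrain and some peripheral tissues, was near the limit of detection. It had 33 counts in replicate 6 and 8 counts in replicate 7 of the OVX + v group (20.6 and 5.02 CPM) and 0 in the other 18 libraries. Set against 3 counts in each library, the smallest number taken as detected, *Npas2* was at least 3.02-fold lower in sham + v, at least 2.24-fold lower in OVX + E2 and at least 3.22-fold lower in OVX + RAL than the mean of the OVX + v group. These bounds rest on replicate 6: without it the OVX + v mean was 1.25 CPM, under the level of 3 counts in each of the other groups, and no bound was left. Since 3 of the 5 OVX + v libraries were also at 0, the ranges overlapped, and the exact permutation p was 0.444 in each comparison. The adjusted p-values by edgeR were 0.363, 0.351 and 0.402. A level under 3 counts, or 2.67 CPM in the smallest library, cannot be told from 0 at this depth, and this limit covers counting error only.

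**Figure D3:**
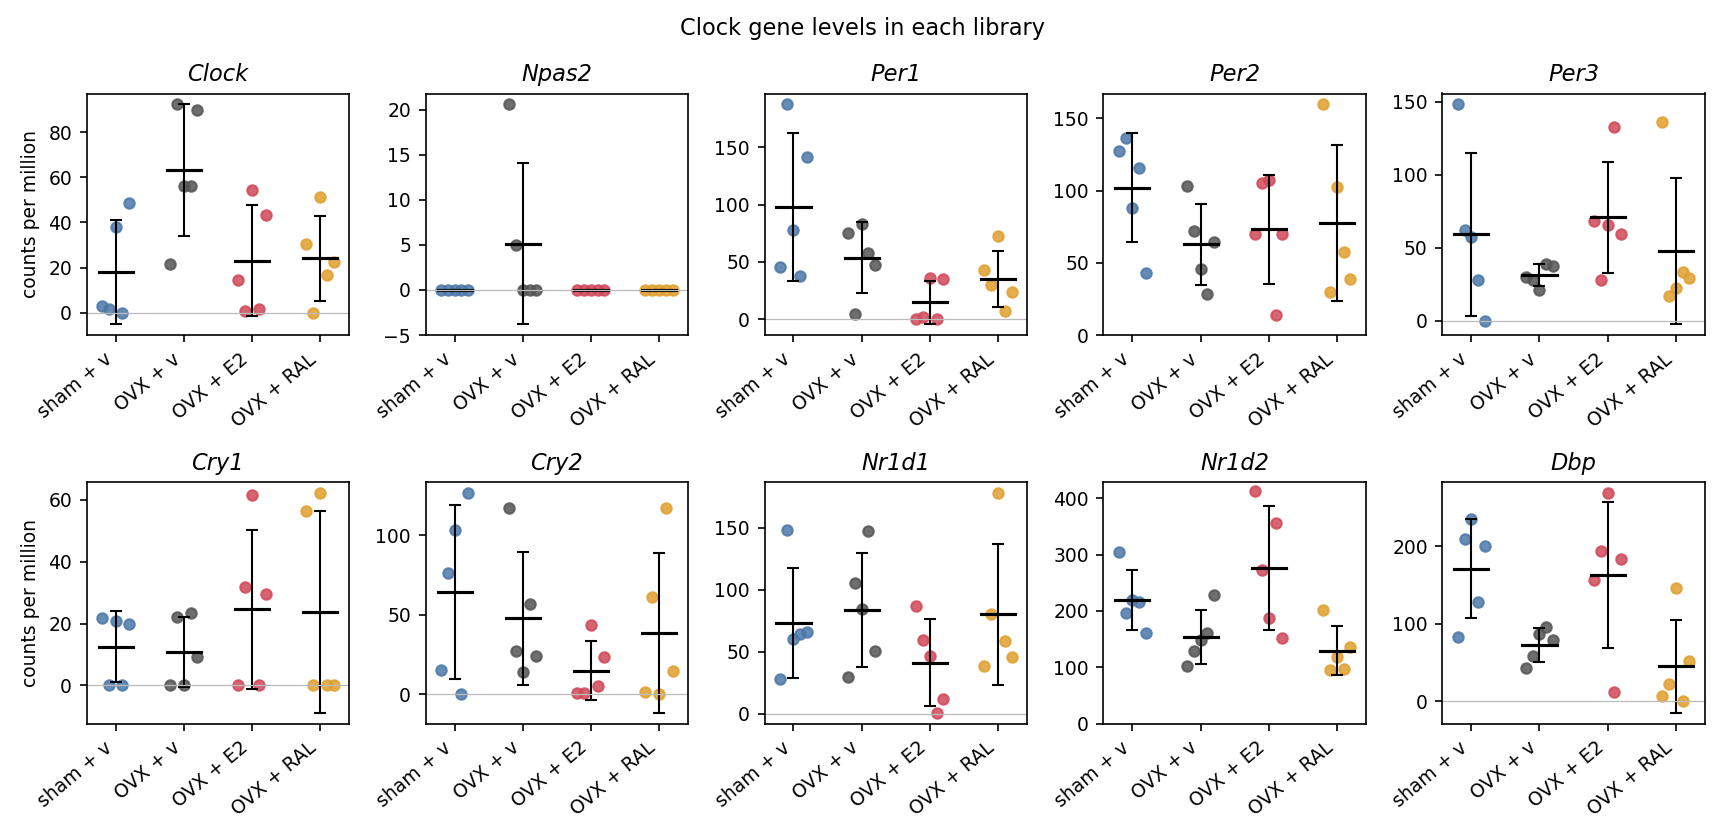
Level in CPM (linear axes, each gene with its own scale) of the 10 clock genes by group, with 1 point for each library and the mean ± SD of 5 libraries in black. The OVX + v points of *Dbp* lie between 43.0 and 95.6 CPM, while 4 of 5 sham + v points and 4 of 5 OVX + E2 points lie above them; the points of every gene overlap between each group and the OVX + v group.

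The 3 *Per* genes encode repressors of the loop, and the transcripts of *Per1* and *Per2* also respond to light and to glucocorticoids. *Per1* (chromosome 11, 68986043 to 69000786, plus strand) was at 45.3, 187, 78.2, 37.5 and 141 CPM in sham + v and at 75.4, 4.39, 83.3, 57.5 and 47.4 CPM in OVX + v. It was at 0.663, 2.27, 36.1, 0 and 35.1 CPM in OVX + E2 and at 42.7, 30.2, 72.8, 7.34 and 24.0 CPM in OVX + RAL. Of the OVX + E2 libraries 3 were at or under 3 counts and below every OVX + v library, yet the other 2 lay within the OVX + v range. The 3 low libraries were replicates 11, 12 and 14, as for *Clock*. The log2 fold change in OVX + E2 was -1.85 (SE 1.42, adjusted p = 0.865 by edgeR, p = 0.0556 by the exact permutation test). In sham + v it was 0.87 (SE 0.66) and in OVX + RAL -0.60 (SE 0.83), with adjusted p-values of 0.946 and 1.000 by edgeR.

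*Per2* (chromosome 1, 91343704 to 91387046, minus strand) was counted in all 20 libraries, from 14.2 CPM in replicate 14 to 160.0 CPM in replicate 16, and its group means were 102 ± 37.8 CPM (SD, n = 5) in sham + v, 62.9 ± 28.2 in OVX + v, 73.3 ± 37.7 in OVX + E2 and 77.7 ± 53.9 in OVX + RAL. The log2 fold changes against the OVX + v group were 0.70, 0.22 and 0.31, with 95% intervals from -0.51 to 1.91, from -1.49 to 1.93 and from -0.88 to 1.5. *Per2* thus had the smallest fitted differences among the *Per* genes, with intervals that still allow changes of over 2-fold.

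*Per3* (chromosome 4, 151088109 to 151129122, minus strand) was at 29.9, 28.2, 21.0, 39.13 and 37.6 CPM in OVX + v, close together. It was at 148, 62.5, 57.5, 28.0 and 0 CPM in sham + v, at 68.3, 27.9, 65.7, 133 and 59.6 CPM in OVX + E2 and at 136, 17.2, 22.3, 33.1 and 29.3 CPM in OVX + RAL. Of the OVX + E2 libraries 4 lay above every OVX + v library and replicate 12 lay among them. The log2 fold change in OVX + E2 was 1.18 (SE 1.08, adjusted p = 0.990 by edgeR, p = 0.0397 by the exact permutation test). In OVX + RAL the value of 0.61 came from replicate 16, and without this library it was -0.29. *Per3* lies within *Camta1* on the same strand over 41014 bases, so the assignment of reads between the 2 genes is uncertain. *Camta1* was at 25.9 CPM on average (r = 0.22 and rho = 0.19 with *Per3* over 20 libraries).

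The cryptochromes, the partners of the PER proteins, were counted unevenly. *Cry1* (chromosome 10, 84967564 to 85020928, minus strand) was at 0 in 9 of 20 libraries and reached 62.3 CPM in replicate 18. Its group means were 12.5 ± 11.4 CPM (SD, n = 5) in sham + v, 10.9 ± 11.4 in OVX + v, 24.6 ± 25.8 in OVX + E2 and 23.8 ± 32.6 in OVX + RAL. *Cry2* (chromosome 2, 92233991 to 92264388, minus strand) was at 0.663, 0.755, 43.3, 5.34 and 23.1 CPM in OVX + E2 and at 117, 27, 14.2, 56.5 and 23.7 CPM in OVX + v. Again 3 OVX + E2 libraries lay below every OVX + v library. They were replicates 11, 12 and 14, as for *Clock* and *Per1*, so the lower values of the 3 genes are not independent. Each of these libraries had fewer than 9000 genes counted. So had replicate 13, which lay within the OVX + v range for all 3 genes. The part of the number of genes counted in these values was not tested. The log2 fold change of *Cry2* in OVX + E2 was -1.70 (SE 1.5, adjusted p = 0.968 by edgeR, p = 0.0714 by the exact permutation test). It ran from -2.66 without replicate 13 to -1.05 without replicate 6. *Cry2* ranged from 0 to 127 CPM in sham + v and from 0 to 117 CPM in OVX + RAL, and its log2 fold changes were 0.43 (SE 0.81) in sham + v and -0.30 (SE 0.87) in OVX + RAL. With single libraries left out these ran from 0.03 to 1.08 in sham + v and from -1.32 to 0.35 in OVX + RAL.

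*Nr1d1* and *Nr1d2* encode the REV-ERB repressors of the second loop. *Nr1d2* (chromosome 14, 4230569 to 4265642, plus strand) was at 305, 196, 219.9, 216 and 161 CPM in sham + v and at 102, 128, 149, 161 and 228 CPM in OVX + v. It was at 413, 273, 188, 356 and 152 CPM in OVX + E2 and at 202, 94.8, 117, 97.1 and 135 CPM in OVX + RAL. Of 5 OVX + E2 libraries 3 lay above every OVX + v library and 2 lay within their range. The log2 fold change in OVX + E2 was 0.85 (SE 0.44, 95% interval -0.01 to 1.71, adjusted p = 0.366 by edgeR, p = 0.0556 by the exact permutation test). In sham + v it was 0.52 (SE 0.40) and in OVX + RAL -0.25 (SE 0.41). *Nr1d2* was higher in libraries with fewer genes counted (Pearson's r = -0.55 and Spearman's rho = -0.61 over 20 libraries). The 3 highest OVX + E2 libraries were among those with fewer than 9000 genes, and without all 6 such libraries the log2 fold change in OVX + E2, then of replicate 15 alone, was -0.02.

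*Nr1d1* (chromosome 11, 98658758 to 98666159, minus strand) was at 27.8, 148, 60.5, 64.3 and 65.7 CPM in sham + v and at 29.9, 105, 84.5, 147 and 50.9 CPM in OVX + v. It was at 86.9, 59.7, 46.5, 0.89 and 11.9 CPM in OVX + E2 and at 38.6, 80.3, 178, 58.2 and 46.1 CPM in OVX + RAL. Replicates 14 and 15 of the OVX + E2 group lay below every OVX + v library, as did replicate 1 of sham + v, while replicate 2 of sham + v and replicate 18 of OVX + RAL lay above, so the groups overlapped. The log2 fold changes were -0.19 (SE 0.63) in sham + v, -1.02 (SE 0.93) in OVX + E2 and -0.06 (SE 0.55) in OVX + RAL, with adjusted p-values of 0.993 or more by edgeR. The last 1075 bases of *Nr1d1* overlap *Thra* on the opposite strand, which was at 369 CPM on average, over 5 times the level of *Nr1d1*. The levels of the 2 genes had r = -0.08 and rho = 0.08 over 20 libraries.

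*Arntl*, the partner of *Clock*, and 21 further clock genes were set beside the members. *Arntl* was at 1.87, 0, 18.1, 35.2 and 7.66 CPM in OVX + v, at 37.5, 0, 0, 9.51 and 0 CPM in sham + v, at 0, 5.92, 1.76, 2.62 and 12 CPM in OVX + RAL and at 0 in all 5 OVX + E2 libraries. The *Arntl* level of the OVX + E2 group was at least 5.49-fold lower than the mean of the OVX + v group, set against 3 counts in each library, and at least 3.02-fold lower without replicate 9 of the OVX + v group. Replicate 7 of the OVX + v group was at 0 too, so the ranges overlapped, and the adjusted p was 0.351 by edgeR. As for *Npas2*, these bounds cover counting error only, and *Arntl* was at 0 in 10 of the 20 libraries. As a group the OVX + E2 libraries had the lowest totals (median 1324047 counts) and the fewest genes with a count, and the part of depth in this difference was not tested.

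Of the 22 further clock genes 20 could be tested in each comparison, and 0 were past the threshold by edgeR. DESeq2 gave a p for 18 of them in sham + v, for 18 in OVX + E2 (1 without an adjusted p) and for 19 in OVX + RAL, and called 0. At an unadjusted p under 0.05 edgeR had 2 of 20 in sham + v, against 12.5% of all genes, 1 of 20 in OVX + E2, against 13.9%, and 1 of 20 in OVX + RAL, against 12.1%, each below the share over all genes by edgeR. DESeq2 had 1 of 18, 1 of 18 and 2 of 19, against 5.59%, 6.05% and 5.63%. The 4 of edgeR are given as values only and were chosen after their values were seen. In sham + v *Nampt*, the enzyme that makes a precursor of NAD and is driven by the clock, was at 38.0, 115, 67.0, 113 and 129 CPM against 27.4, 47.7, 21.5, 6.93 and 29.3 CPM in OVX + v (log2 fold change 1.80, SE 0.80, adjusted p = 0.363 by edgeR). Of the 5 libraries 4 lay above every OVX + v library. The summed level of the 4 bone markers, each at 0 in some libraries, also had its highest median in sham + v (231 CPM, 57.7 to 273). Its lowest was in OVX + v (64.1 CPM, 1.13 to 211), against 103 CPM in OVX + E2 and 194 CPM in OVX + RAL. The part of bone in the level of *Nampt* was not tested. *Fbxl21*, which helps to control the turnover of CRY proteins, was at 0 in sham + v and was counted in only 2 OVX + v libraries, nearly all of it in replicate 9. In OVX + RAL *Hlf*, a D-box factor of the family of *Dbp*, was at 70.2 ± 43.8 CPM (SD, n = 5) against 143 ± 55.3 in OVX + v (log2 fold change -1.03, SE 0.47, adjusted p = 0.402 by edgeR). In OVX + E2 the gene was *Arntl*.

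The 3 most abundant of the further genes had log2 fold changes between -0.72 and 0.43. *Tef*, the third D-box factor, had log2 fold changes of 0.12 (SE 0.41), 0.43 (SE 0.46) and 0.30 (SE 0.37) in sham + v, OVX + E2 and OVX + RAL. The kinase genes *Gsk3b* and *Csnk1d*, whose products phosphorylate clock proteins, ranged from -0.11 to 0.12 and from -0.72 to -0.14. None of 4 glucocorticoid target genes and none of the 6 or 7 tested immediate early genes was past the threshold by edgeR in a comparison with the OVX + v group, nor of the 4 and the 6 or 7 for which DESeq2 gave a p. At an unadjusted p under 0.05 edgeR had 1 of the 7 immediate early genes in OVX + E2, against 13.9% of all genes, and DESeq2 had 0 of 6, against 6.05%.

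Clock genes of opposite phase move against each other over the day in rhythmic tissues. All 45 pairs of members were compared across the 20 libraries on log2(CPM + 1). No pair was correlated past the threshold. The lowest p of Pearson's r, adjusted over the 45 pairs after 100000 permutations, was 0.517, and that of Spearman's rho was 0.425. *Npas2* was counted in 2 libraries only, so its 9 pairs carry no information on phase and were left out of the counts of signs. The 6 pairs of *Clock* with a gene of the opposite phase (*Per1*, *Per2*, *Per3*, *Nr1d1*, *Nr1d2* or *Dbp*) had 2 negative and 4 positive values, from -0.26 to 0.25 with a median of 0.05. The 15 pairs among those 6 genes, which peak at neighbouring times in rhythmic tissues, had 10 positive values and 5 negative ones, from -0.42 to 0.44 with a median of 0.27. As background, r of *Clock* and of each of the 6 genes was taken with all genes counted in every library. The 5th percentiles lay between -0.42 and -0.34, the medians between -0.04 and 0.01 and the 95th percentiles between 0.36 and 0.54. *Clock* and *Dbp* had r = 0.10 and rho = 0.11, and *Clock* and *Nr1d1* r = 0.20 and rho = 0.18. *Nr1d1* and *Nr1d2*, the paralogs of one phase, had r = -0.35 (rho = -0.23), and *Nr1d1* and *Dbp* had r = 0.29 (rho = 0.33), or 0.60 with the group means removed.

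**Figure D4:**
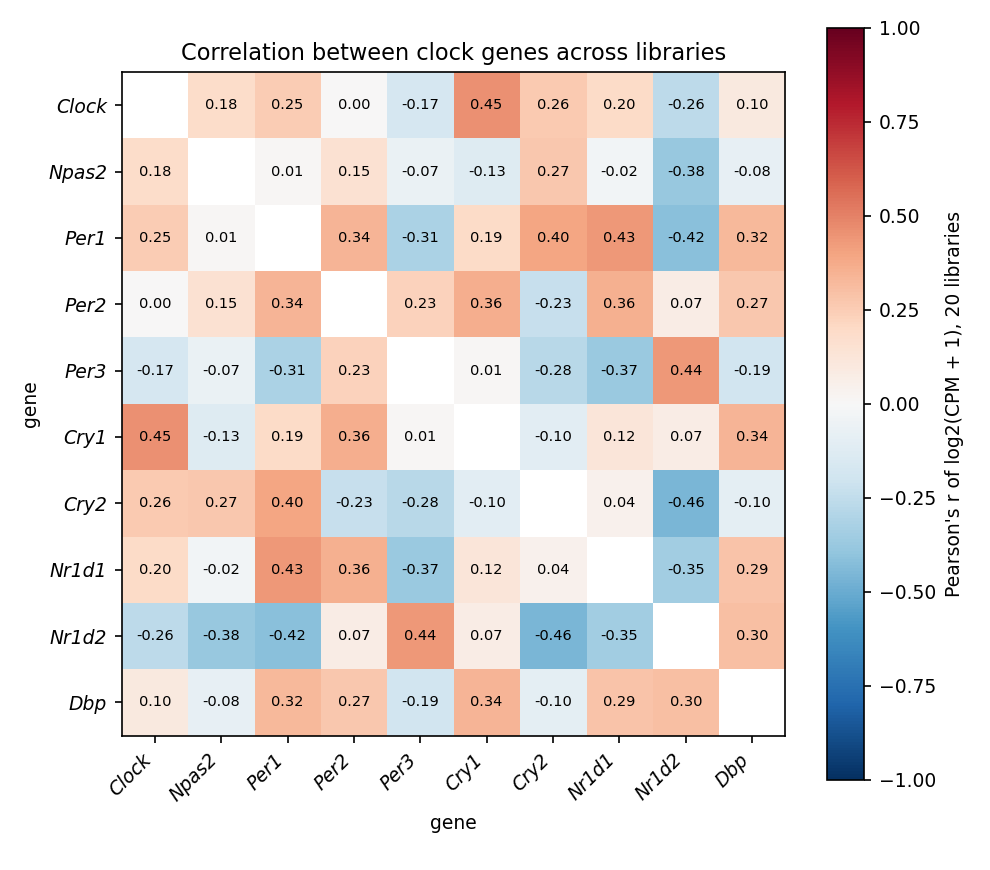
Pearson's r between each pair of the 10 clock genes across 20 libraries, on log2(CPM + 1), with red for positive and blue for negative values and the value printed in each cell. The values lie between -0.46 and 0.45, and the row of *Clock* holds both signs against the genes of opposite phase. The row of *Npas2* rests on 2 libraries.

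Before adjustment 2 of the 45 pairs had a permutation p under 0.05 by r and another 2 by rho, in each case a share near the threshold itself. *Cry2* and *Nr1d2* had r = -0.46 (permutation p = 0.0420, adjusted 0.517) and rho = -0.41 (permutation p = 0.0729, adjusted 0.603), and *Clock* and *Cry1* had r = 0.45 (permutation p = 0.0456, adjusted 0.517) and rho = 0.44 (permutation p = 0.0546, adjusted 0.603). *Per3* and *Nr1d2* had r = 0.44 (permutation p = 0.0524, adjusted 0.517) and rho = 0.57 (permutation p = 0.00945, adjusted 0.425). *Per3* and *Nr1d1* had r = -0.37 (permutation p = 0.0949, adjusted 0.517) and rho = -0.46 (permutation p = 0.0420, adjusted 0.603). Without the 2 libraries farthest from the median of the first gene, r was -0.65, 0.32, 0.62 and -0.55 in this order. Without replicate 5, where *Per3* was at 0 and *Nr1d2* at 161 CPM, *Per3* and *Nr1d2* had r = 0.66. Without the 6 libraries with fewer than 9000 genes this pair had r = 0.78 (permutation p adjusted over the 45 pairs 0.0378) and was the 1 pair past the threshold. After removal of the group means 0 of the 45 pairs were past the threshold (lowest permutation p adjusted over the pairs 0.137), and 6 had an unadjusted permutation p under 0.05. They were *Nr1d1* and *Dbp* (r = 0.60, permutation p = 0.00756), *Per1* and *Dbp* (r = 0.55, permutation p = 0.00358), *Per3* and *Nr1d2* (r = 0.48, permutation p = 0.00961), *Cry2* and *Nr1d2* (r = -0.58, permutation p = 0.0122), *Clock* and *Cry1* (r = 0.56, permutation p = 0.0224) and *Npas2* and *Dbp* (r = -0.14, permutation p = 0.0494). The first 4 of these had an adjusted permutation p of 0.137. The last rests on the 2 libraries in which *Npas2* was counted, and its permutation p cannot be told from 0.05 at this number of permutations.

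Among the genes counted in every library, each member counted in at least 15 libraries was also given its nearest genes by r, as a description without a test. The nearest to *Dbp* were *Phldb1* (0.77), *Ncdn* (0.70) and *Pbx2* (0.69), and the farthest *Hsd17b11* (-0.63). For *Nr1d2* they were *Hnrnph1* (0.79), *Hnrnpa1* (0.69) and *Cilp2* (0.68), with *Slc2a1* (-0.68) farthest. *Clock* was nearest to *Gabarapl1* (0.67), *Tshz2* (0.66) and *Ankrd6* (0.65) and farthest from *Ifitm2* (-0.71). *Per1* was nearest to *Maco1*, *Tex264* and *Prdx4* (0.77 each) and farthest from *Ubxn8* (-0.71). *Per2* was nearest to *Gcc2* (0.75), *Arl8b* (0.74) and *Iws1* (0.74) and farthest from *Ndufa7* (-0.69). For *Per3* the nearest were *Wipi1* (0.88), *Psmd7* (0.82) and *Clcn2* (0.78) and the farthest *Gab1* (-0.69), and for *Cry2* they were *Krt18* (0.72), *Cttn* (0.71) and *Dnm1l* (0.69) with *Rbbp4* (-0.62). None of these partners is on the lists of clock genes. All values are the extremes of 3147 or 3148 genes.

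For *Nr1d1* the nearest genes were *Tmc1* (0.82), *Sil1* (0.80) and *Mef2a* (0.80), and the farthest was another clock gene, *Bhlhe41* (r = -0.79 and rho = -0.89 over 20 libraries). *Bhlhe41* encodes DEC2, a repressor that binds the E-box and opposes CLOCK and BMAL1. Its value was the lowest of 3147 genes by r and by rho, and the next lowest were *Cyhr1* (r = -0.69) and *Nfkbia* (rho = -0.74). *Bhlhe41* was at 101, 36.7, 143, 54.8 and 57.7 CPM in sham + v, at 164, 47.1, 50.4, 34.2 and 88.5 CPM in OVX + v, at 51.7, 52.9, 96.2, 210.1 and 138 CPM in OVX + E2 and at 129.6, 65.2, 12.3, 81.3 and 63.4 CPM in OVX + RAL. Its highest level, in replicate 14, stood beside the lowest of *Nr1d1* (0.89 CPM), and its lowest, in replicate 18, beside the highest of *Nr1d1* (178 CPM).

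*Bhlhe41* was picked because its r with *Nr1d1* was the lowest in these same libraries. The values below therefore describe the pair and do not test it. With each library left out r lay between -0.83 and -0.77. It was -0.86 without replicates 14 and 15, the 2 farthest from the median of *Nr1d1*. With the group means removed it was -0.78. Without the 6 libraries with fewer than 9000 genes it was -0.84, and then *Nfkbia* was lower (-0.90). *Nr1d1* had r = 0.53 with the log2 total count of the library and *Bhlhe41* had r = -0.32, and the part of depth in the relation was not tested. The log2 fold changes of *Bhlhe41* were 0.03 in sham + v (95% interval -1.22 to 1.28), 0.51 in OVX + E2 (-0.86 to 1.89) and -0.13 in OVX + RAL (-1.29 to 1.03), which allow differences of over 2-fold. Over the other 111 pairs of 8 members with 14 further clock genes counted in at least 15 libraries, r ran from -0.55 (*Dbp* with *Bhlhe40*, the paralog of *Bhlhe41*, rho = -0.67) to 0.61 (*Nr1d1* with *Csnk1d*, where rho was 0.10), with a median of -0.03.

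**Figure D5:**
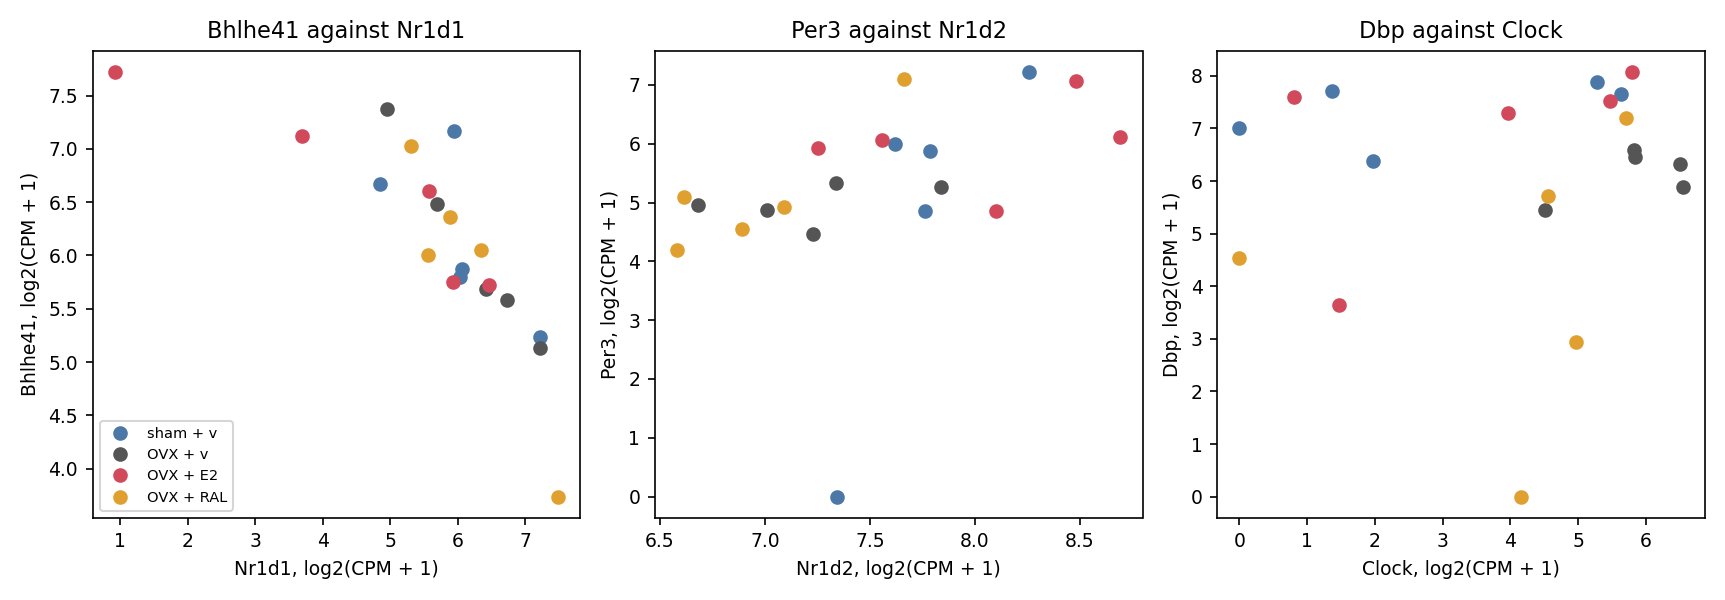
Levels of 3 pairs of clock genes as log2(CPM + 1) on both axes, with 1 point for each of 20 libraries coloured by group. The points of *Bhlhe41* lie lower where *Nr1d1* is higher (r = -0.79), those of *Per3* lie higher where *Nr1d2* is higher apart from the library at 0 (r = 0.44), and those of *Dbp* are scattered against *Clock* (r = 0.10).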

How the data were processed

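The authors trimmed adaptors, poly(A) and 12 nucleotides at the 5′ end, dropped reads shorter than 20 nucleotides, mapped the rest to GRCm39.105 and counted them in CLC Genomics Workbench (version not given in the sources used here). The deposited total counts are raw counts per gene without normalization. The deposited tables also hold CPM, TPM and RPKM columns and the authors' own comparisons (fold changes, p-values and FDR values), none of which was used. The counts cover 20 libraries made from 1 ng of RNA, with totals of 1123053 to 2081747.

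CPM was computed from the column totals. edgeR 4.0.16 in R 4.3.3 was used (glmQLFit and glmQLFTest) on library sizes equal to the total counts, for genes with at least 10 counts summed. Each group was fitted with the OVX + v group, and all 4 groups were fitted for the test of any difference. The standard error was taken as the absolute log2 fold change over the square root of F. The pair correlations used Python 3.11.15 with scipy 1.17.1 and a pseudocount of 1 CPM. The scripts were tested on simulated data. Of 40 pairs of libraries within groups 0 were identical. On log2 CPM, r between the 2 libraries of a pair ran from 0.547 to 0.6972, with a median of 0.6575.

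The members, the gene lists and the tests were chosen with earlier results of these data known. The genes named are the 10 members, *Arntl*, the 3 further clock genes with the highest mean CPM (further clock genes past the threshold would have been named, and there were none), the 3 nearest genes and the farthest gene of each member by r, and genes overlapping a member. Outside this rule, *Nampt*, *Fbxl21* and *Hlf* (an unadjusted p under 0.05), *Bhlhe40*, *Cyhr1* and *Nfkbia* (extremes of a correlation) and the markers *Oc90*, *Muc5b*, *Bpifa1*, *Pecam1* and *Cdh5* were picked with their values in view. The alternatives were TMM, DESeq2 1.42.0, no filter, the default filter of edgeR, its robust form, all libraries in 1 fit, other scales of the correlations and each library left out. The exact permutation test, the fits without 6 libraries, the bounds without single OVX + v libraries, the pair signs without *Npas2* and all alternatives for *Nr1d1* and *Bhlhe41* were added after the data were seen.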

Additional observations from a re-analysis of the deposited data

Results flagged for a closer look

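Within groups of 5 libraries, the highest or the lowest value of a gene was compared with the others by the gap to its neighbour over the whole range. Of 44 groups with a count, for the 10 members, *Arntl* and *Bhlhe41*, 3 held a library that stood apart, and chance gives about 1 in 20. *Per3* was at 136 CPM in replicate 16 of the OVX + RAL group (265 counts), where the other 4 libraries lay between 17.2 and 33.1 CPM. *Npas2* was at 20.6 CPM in replicate 6 of the OVX + v group (33 counts), where the others lay between 0 and 5.02 CPM. *Arntl* was at 37.5 CPM in replicate 1 of the sham + v group (77 counts), where the others lay between 0 and 9.51 CPM.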

How the results depend on the processing

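No paired analysis was possible because the replicate numbers 1 to 20 are each used once and the groups compared share none. The number of clock members past the threshold was 0 in all comparisons under every alternative other than leaving out single libraries, where it was 0 to 1 in the test of any difference (*Dbp*, without replicate 18) and 0 in the others.

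The number of all genes past the threshold moved. Against 2 in the sham + v group, it was 1 with TMM, 12 with DESeq2, 0 with the default filter of edgeR, 0 with its robust form, 5 without the 6 libraries with fewer than 9000 genes and 0 by the exact permutation test. Against 8 in the OVX + E2 group, the numbers were 38 with DESeq2, 1 with the default filter, 4 with the robust form, 2 without those libraries (which leaves 1 OVX + E2 library, assumed to vary like the OVX + v group) and 0 by the exact permutation test. Against 4 in the OVX + RAL group, they were 0 with the default filter, the robust form and the exact permutation test. Against 21 in the test of any difference, they were 2 with DESeq2, 1 with the default filter and 5 with the robust form. With single libraries left out the numbers were 1 to 10 in the sham + v group (10 without replicate 1, and 1 without replicate 2, 7 or 10), 6 to 17 in the OVX + E2 group (17 without replicate 11), 3 to 11 in the OVX + RAL group (11, 9, 8 and 8 without replicate 16, 20, 18 and 7) and 17 to 28 in the test of any difference.

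Of 207 values of the members' log2 fold changes under the other alternatives 1 changed sign, *Nr1d2* in the OVX + E2 group (-0.018 without the libraries with fewer than 9000 genes). Of 297 with a single library left out 17 did: *Cry1* (-0.12 to 0.69) and *Nr1d1* (-0.62 to 0.11) in the sham + v group, and *Cry2* (-1.32 to 0.35), *Nr1d1* (-0.58 to 0.24), *Per2* (-0.14 to 0.56) and *Per3* (-0.29 to 0.82) in the OVX + RAL group. The cause was not tested. TMM moved the median of all genes by -0.11 on the log2 scale in the OVX + E2 group and by less than 0.05 in the others. The number of member pairs past the threshold was 0, except 1 (*Per3* with *Nr1d2*) without the libraries with fewer than 9000 genes. The standard errors of 9 members (0.40 to 2.14 on the log2 scale) at 5 libraries a group limit what could be called.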
